A study of Mus musculus with 12 samples.

Results

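The Akr1c genes encode cytosolic aldo-keto reductases, and 4 of them, Akr1c13, Akr1c12, Akr1c14 and Akr1c18, were followed through 12 RNA-seq libraries of mouse eosinophils. They were taken by symbol from the 53801 genes of the count table, of which 26487 had a count in at least 1 library. Akr1c13 was listed because it was lower in Atg5-knockout eosinophils of bone marrow, and its relatives were listed with it. The genes were thus chosen by their levels in knockout against control bone marrow, and the values of that contrast are given below as a description with no test.

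The study asked how the loss of Atg5, a gene required for autophagosome formation, changes the transcripts of eosinophils. Atg5-knockout eosinophils came from Atg5 flox/flox eoCre Il5tg mice and control eosinophils from eoCre Il5tg mice, with 3 libraries each from bone marrow and from blood. The eoCre allele, a Cre recombinase knocked into the eosinophil peroxidase gene Epx, and the Il5 transgene, driven by the Cd3d promoter to raise eosinophil numbers, were carried by both genotypes, so the 2 genotypes differed in the floxed Atg5 alleles. Cells were enriched by removing other leukocytes with antibodies, and the age of the mice was not given in the sources used here.

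Many AKR1C enzymes use NADPH to reduce ketones and aldehydes, among them steroid hormones and prostaglandins, and can so affect how much active hormone or lipid mediator a cell holds. Akr1c18 encodes 20-alpha-hydroxysteroid dehydrogenase, which inactivates progesterone and can also form prostaglandin F. The Akr1c14 product is a 3-alpha-hydroxysteroid dehydrogenase, and the Akr1c12 and Akr1c13 products are closely related to each other. Eosinophils are a source of prostaglandins and of other lipid mediators derived from arachidonic acid.

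The members lie in 1 cluster on chromosome 13, within 230.4 kb in the GRCm38 coordinates of the count table. Akr1c14 (ENSMUSG00000033715) spans 4049011 to 4090688 on the plus strand and Akr1c18 (ENSMUSG00000021214) spans 4132615 to 4150654 on the minus strand. Akr1c13 (ENSMUSG00000021213) follows at 4191150 to 4205596 on the plus strand, and Akr1c12 (ENSMUSG00000021211) lies at 4268176 to 4279433 on the minus strand. The gene bodies of Akr1c12, Akr1c13 and Akr1c18 overlapped no other annotated gene.

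Akr1c12 and Akr1c13 are near-identical copies. Their coding sequences were 96.2% identical over 969 aligned bases, whereas Akr1c18 matched Akr1c13 at 73.9% and Akr1c14 matched it at 73.2%. Of the 1170 windows of 100 bases in the Akr1c13 transcript, 134 (11.5%) occurred exactly in Akr1c12, and none occurred in Akr1c18 or Akr1c14. Reads from such shared stretches map to more than 1 place and were not counted, so the counts of Akr1c12 and Akr1c13 rest on the stretches in which they differ and their separation is less certain than that of Akr1c18.

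The likeness of the pair extended to the promoters, which are shown because these 2 genes carry most of the Akr1c counts and can be told apart by few bases. Each run is 300 bases from RefSeq on GRCm38.p6, read 5′ to 3′ on the gene's strand from 250 bases before to 50 bases after the start, with capitals for the bases that differ between the pair. The alignment held 12 substitutions and 1 gap base and was 95.9% identical over 296 bases.
Akr1c13, chr13:4190937-4191236, plus strand: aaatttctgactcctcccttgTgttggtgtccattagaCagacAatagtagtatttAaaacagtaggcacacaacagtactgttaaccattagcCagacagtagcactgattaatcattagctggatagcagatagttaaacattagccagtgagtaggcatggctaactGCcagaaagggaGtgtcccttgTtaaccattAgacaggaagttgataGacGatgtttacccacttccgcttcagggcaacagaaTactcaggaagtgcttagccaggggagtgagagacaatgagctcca
Akr1c12, chr13:4279350-4279649, minus strand: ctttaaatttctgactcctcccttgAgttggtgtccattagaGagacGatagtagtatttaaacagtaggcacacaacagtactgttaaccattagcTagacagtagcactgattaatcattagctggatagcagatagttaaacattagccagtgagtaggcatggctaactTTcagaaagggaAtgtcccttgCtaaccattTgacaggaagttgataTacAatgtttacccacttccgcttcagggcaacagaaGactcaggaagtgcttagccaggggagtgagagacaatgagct

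The ETS-type motif AGGAAG, searched on both strands, occurred at 2 places in the Akr1c13 promoter and at 2 in the Akr1c12 promoter, in stretches without a capital. The Akr1c18 promoter held it once and the Akr1c14 promoter did not hold it, and 35.4% of the 32851 promoters of this length contained it. GATAA (25.4% of promoters), CCAAT (37.4%), TATAAA (13.6%) and the antioxidant response motif TGACNNNGC (12.4%) were not found in the windows of Akr1c13, Akr1c12 or Akr1c18. Akr1c14, which had no counts, held GATAA and CCAAT at 1 place each. Outside the close pair, the promoters were 57.9% to 66.0% identical.

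Total counts ran from 18885052 to 30270166 per library. The 10 listed eosinophil markers, of which the granule gene Prg2 had the most counts, together held 8.04% to 10.2% of the counts in bone marrow and 1.80% to 4.05% in blood, while the surface markers Siglecf and Ccr3 on that list had more counts in blood in both genotypes. Blood control replicate 1 stood apart, with 14.6% of its counts in red cell genes, where the other 11 libraries had at most 1.42%, and the fold changes of the members and of the list genes called between the tissues that are given below for control mice are also given without it. Atg5 itself, counted over all exons and so no check of a deleted exon, was at 42.4 ± 2.61 CPM (counts scaled to a library of 1e6 after edgeR's TMM factor) in control and 31.9 ± 1.74 CPM in knockout bone marrow, and at 48.0 ± 9.62 CPM and 47.2 ± 9.13 CPM in control and knockout blood (SD, n = 3 each). The difference in Atg5 was not called in either tissue (edgeR quasi-likelihood test, adjusted p = 0.157 in bone marrow and 1 in blood).

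Akr1c13 was the main Akr1c transcript of these eosinophils. Per kilobase of annotated length, control bone marrow held 33.1 CPM of Akr1c13, 3.71 CPM of Akr1c12 and 4.21 CPM of Akr1c18. All levels are CPM scaled with edgeR's TMM factors over the 12 libraries and, unless given per kilobase, compare 1 gene between libraries.

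For Akr1c13, the gene that led to the choice, control bone marrow had 50.0, 49.5 and 42.8 CPM in replicates 1, 2 and 3. Knockout bone marrow had 20.5, 20.8 and 26.3 CPM. Every knockout library lay below every control library of bone marrow. Blood control libraries had 13.2, 35.0 and 25.7 CPM, and blood knockout libraries had 12.3, 18.2 and 29.0 CPM. The blood groups overlapped along most of their range, and replicate 1 was the lowest in both. The group means were 47.4 ± 4.02, 22.5 ± 3.23, 24.6 ± 10.9 and 19.8 ± 8.43 CPM (SD, n = 3 each) in control bone marrow, knockout bone marrow, control blood and knockout blood. Control bone marrow thus stood above the others, whose library values overlapped one another. The values rested on 216 to 1644 counts per library.

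Akr1c12, the near-identical copy of Akr1c13, was far less abundant. Control bone marrow had 5.63, 4.22 and 4.21 CPM, and knockout bone marrow had 1.40, 2.02 and 2.47 CPM. In blood, the control libraries had 1.52, 4.13 and 3.93 CPM and the knockout libraries had 2.48, 2.93 and 2.96 CPM. The order of the group means differed from that of Akr1c13, with knockout bone marrow lowest. These means were 4.68 ± 0.818 CPM in control bone marrow, 3.19 ± 1.45 CPM in control blood, 2.79 ± 0.269 CPM in knockout blood and 1.96 ± 0.537 CPM in knockout bone marrow (SD, n = 3 each). Neighbors in this order were close, since the highest control blood library was just under the lowest control marrow library, control blood spanned all of knockout blood, and the highest knockout marrow library was just under the lowest knockout blood library.

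Akr1c18, the progesterone-inactivating enzyme, had the widest range, with 20.6-fold between its highest and lowest group means against 2.39-fold for Akr1c13 and for Akr1c12. Control bone marrow had 5.90, 4.90 and 4.44 CPM, and knockout bone marrow had 0.749, 2.30 and 2.65 CPM, of which replicate 1 was the lowest. Blood control libraries had 0.122, 0.703 and 0.785 CPM, from 2, 16 and 16 counts. Blood knockout libraries had 0.343, 0.0903 and 0.307 CPM, from 8, 2 and 6 counts, so each value in blood carries a large counting error. The group means were 5.08 ± 0.748, 1.90 ± 1.01, 0.537 ± 0.362 and 0.246 ± 0.137 CPM (SD, n = 3 each) in control bone marrow, knockout bone marrow, control blood and knockout blood. The libraries of control and knockout blood overlapped, and the lowest knockout marrow library was below the highest control blood library.

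Akr1c14, the 3-alpha-hydroxysteroid dehydrogenase, had 0 counts in all 12 libraries. A count of 0 over the 3 libraries of a group allows up to 3 counts, which corresponds to 0.0368, 0.0374, 0.0443 and 0.0437 CPM in control bone marrow, knockout bone marrow, control blood and knockout blood. The remaining Akr1c genes of the cluster, which were outside the choice, had few or no counts. Akr1c6 and Akr1c20 had 0 counts, Akr1c19, which lies between Akr1c13 and Akr1c12, had 2 in control bone marrow and 4 in control blood, and Akr1c21 had 1 in knockout bone marrow and 3 in control blood. None of these 4 had more than 4 counts in a group. The floors cover counting error only, since the reads carry no molecular identifiers and can be copies of 1 molecule.

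**Figure D1:**
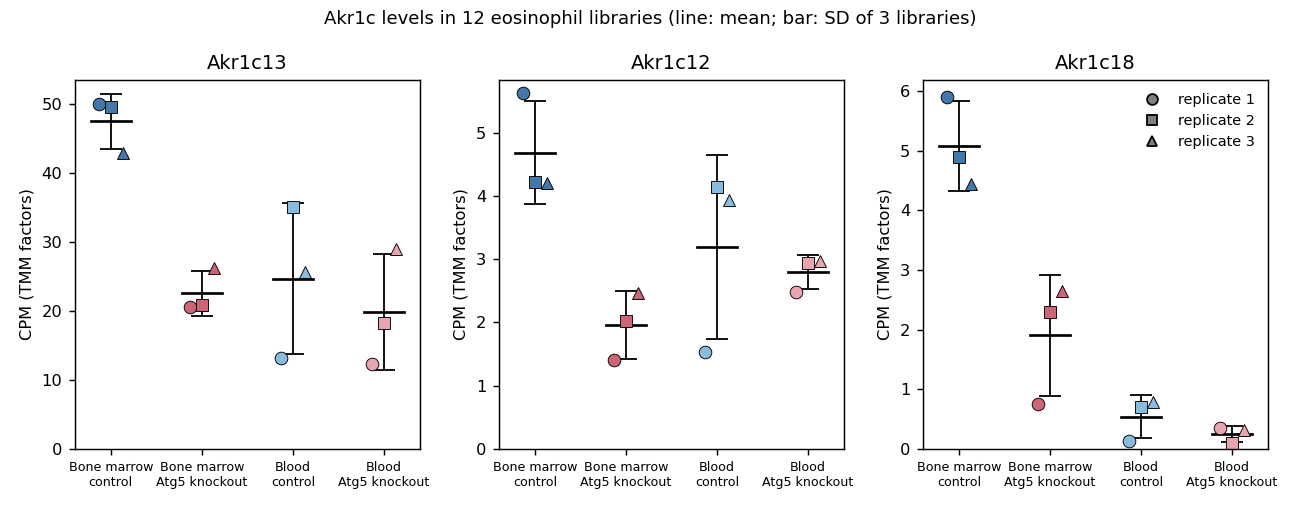
Levels of Akr1c13, Akr1c12 and Akr1c18 in CPM (linear axes that start at 0) in the 12 eosinophil libraries by tissue and genotype, with points for libraries, lines for means and bars for the SD of 3 libraries. Control bone marrow is highest for each gene, at means of 47.4, 4.68 and 5.08 CPM, and Akr1c18 is under 1 CPM in all blood libraries.

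Between Atg5-knockout and control bone marrow, the contrast that chose the genes, Akr1c13, Akr1c12 and Akr1c18 were at 47.5%, 41.9% and 37.4% of the control means. The fitted log2 fold changes were -1.11 for Akr1c13 (SE 0.13), -1.29 for Akr1c12 (SE 0.26) and -1.45 for Akr1c18 (SE 0.35). For these 3 genes no knockout library reached the lowest control library, and the same held for 5.67% of the 13781 genes fitted. Of those genes, 0.348% passed an adjusted p of 0.05 in this contrast. Nothing is read from these shares, because the contrast selected the genes. In bulk RNA, fewer cells that express a gene and less RNA per cell cannot be told apart. The summed eosinophil markers were 8.04% to 9.10% of counts in control and 8.68% to 10.2% in knockout bone marrow, and the basophil and mast cell markers were 0.0492% to 0.0591% and 0.0525% to 0.0597%, so both sums overlapped between these groups. Ccr3 and Kit did not overlap. Ccr3, an eosinophil receptor, had 26138 to 33781 counts in control and 18594 to 23026 in knockout bone marrow. Kit, on the basophil and mast cell list, had 670 to 831 and 852 to 1179. Some other genes of these lists went the other way in group counts, with overlapping libraries. Prg2 had 4068451 in control and 4477934 in knockout bone marrow and Epx 365860 and 433912, while Gata2 had 11985 and 9812 and Cpa3 3418 and 2894. Red cell markers were at 0.138% to 0.249% and 0.204% to 0.726%, and within them Alas2 had 613 to 937 counts in control and 1146 to 3696 in knockout bone marrow. Neutrophil markers summed to 2.22% to 3.17% in control and 2.60% to 3.03% in knockout bone marrow. On that list Ngp did not overlap, with 141727 to 151744 counts in control and 169321 to 175781 in knockout bone marrow. Retnlg went the other way in group counts, at 420905 and 362963, with overlapping libraries. The part of these cells in the lower Akr1c levels was not tested.

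In blood, whose libraries took no part in that choice, no difference in the Akr1c genes between Atg5-knockout and control eosinophils was called. Akr1c13 was at 80.7% of the control mean, with a log2 fold change of -0.29 (SE 0.41, 95% interval -1.22 to 0.63, edgeR quasi-likelihood test, adjusted p = 1). Akr1c12 was at 87.5% of the control mean, with a log2 fold change of -0.18 (SE 0.45, 95% interval -1.20 to 0.84, adjusted p = 1 in the same edgeR fit). The Akr1c13 interval holds both 0 and the -1.11 described in bone marrow, so a difference of that size could not be told from none in these blood libraries, and the Akr1c12 interval ends at -1.20, just short of its -1.29. Of the 2 members tested, 0 were called, 0 had an unadjusted p under 0.05, and 0 were called by DESeq2 or limma-voom, while edgeR called 5 (0.0371%) of the 13460 genes tested, and 10 with the replicate number as a block, again with no member among them. Akr1c18 fell under the filter on low counts with 34 counts in control and 16 in knockout blood, and its means of 0.537 and 0.246 CPM were not tested. Without blood control replicate 1, the library rich in red cell genes, the log2 fold changes were -0.59 for Akr1c13 and -0.51 for Akr1c12. Without blood control replicate 2 they turned to 0.05 for both. Whether the difference between genotypes itself differed between blood and bone marrow was not tested, because that test would use the contrast that chose the genes.

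In control mice, the Akr1c18 libraries of blood eosinophils lay below those of bone marrow. The marrow libraries had also entered the choice of the genes, with control bone marrow as the higher group. The tissue differences are thus not independent of that choice, and those of Akr1c13 and Akr1c18 are given as descriptions. Akr1c18 was at 10.6% of its bone marrow level in blood, and fell by 3.21 on the log2 scale, or 9.24-fold (SE 0.55, 95% interval -4.45 to -1.97). It passed the filter on low counts through its marrow libraries, with 2, 16 and 16 counts in blood. Akr1c13 was at 51.8% of its bone marrow level, a log2 fold change of -0.96 (SE 0.31, 95% interval -1.65 to -0.26). Leaving out single libraries gave log2 fold changes of Akr1c13 from -1.29 to -0.65. Without blood control replicate 1 the log2 fold change of Akr1c13 was -0.65 and that of Akr1c18 was -2.77.

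Akr1c12 was at 68.2% of its bone marrow level in control blood, with a log2 fold change of -0.56 that did not pass the test (SE 0.40, 95% interval -1.47 to 0.36, edgeR adjusted p = 0.318). Without blood control replicate 1 it was -0.23. Over all genes, 34.2% of the 13669 tested were called in either direction and 18% were called lower in blood. No count over the members is set against these shares, because Akr1c13 was chosen on the marrow libraries and Akr1c18 passed the filter through them. For Akr1c13, Akr1c12 and Akr1c18, each blood library lay below each marrow library, as it did for 26.6% of the genes. Nothing is read from this order for the members, since control bone marrow was the higher group in their choice. Differences between these tissues were common among all genes.

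In Atg5-knockout mice, the mean of Akr1c18 was also lower in blood than in bone marrow, which is given as a description. It was at 12.97% of the bone marrow level and fell by 2.91 on the log2 scale, or 7.51-fold (SE 0.66, 95% interval -4.41 to -1.41). With 8, 2 and 6 counts in blood it passed the filter through its marrow libraries, and it was not tested under a filter of at least 1 CPM in 3 libraries. Akr1c13, also given as a description since knockout marrow was the lower group in its choice, was at 88.1% of its bone marrow level. Its log2 fold change was -0.17 (SE 0.28, 95% interval -0.80 to 0.46), and its libraries overlapped between tissues. Without blood knockout replicate 1 this value turned to 0.08. Akr1c12 was at 142.5% of its bone marrow level, with a log2 fold change of 0.53 that did not pass the test (SE 0.33, 95% interval -0.22 to 1.27, edgeR adjusted p = 0.220). Each blood library of Akr1c12 lay above each marrow library, which held for 27.7% of the 13853 genes tested, and for Akr1c18 each lay below, which held for 32.3%. Nothing is read from these orders for the members, since the marrow libraries entered their choice. Over all genes, 47.6% were called in either direction and 24.1% were called lower in blood. Knockout marrow was the lower group in the contrast that chose Akr1c13, and whether the tissue difference depends on genotype was not tested.

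**Figure D2:**
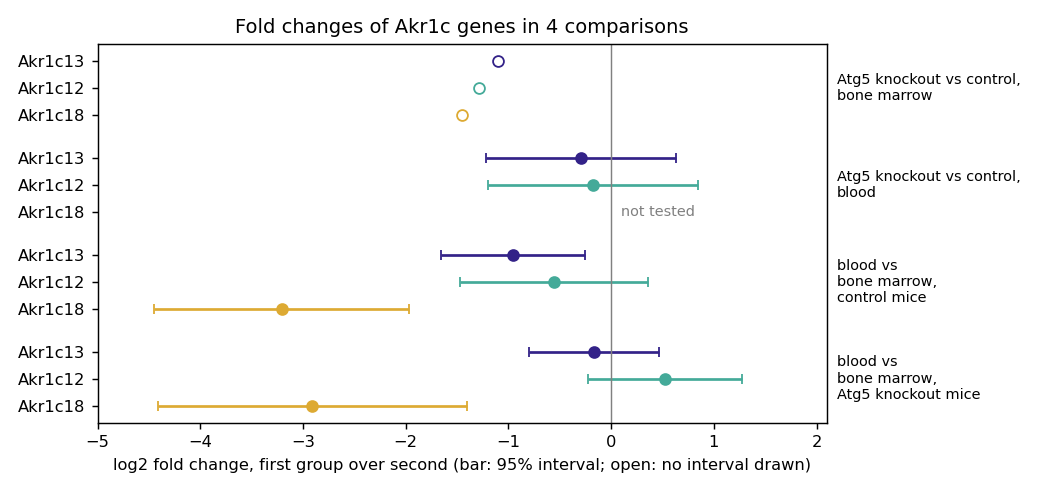
Log2 fold changes of Akr1c13, Akr1c12 and Akr1c18 in 4 comparisons (edgeR; bars are 95% intervals; open points belong to the contrast that chose the genes and are drawn without an interval). The points of Akr1c13 and Akr1c18 between blood and bone marrow are descriptions, also where an interval is drawn. The marrow libraries entered the choice of the genes, and Akr1c18 passed the filter through them. The intervals of Akr1c13 and Akr1c12 between knockout and control blood span 0.

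The summed markers of several cell types also differed between the tissues. Basophil and mast cell markers summed to 0.0492% to 0.0597% of counts in bone marrow and to 0.0205% to 0.0431% in blood, over 11 of 11 listed genes found, of which the mast cell tryptases Tpsab1 and Tpsb2 had 0 counts in every library. The basophil protease Mcpt8 had 3228 counts in control and 3700 in knockout bone marrow, and 1097 and 1112 in the respective blood groups. Cma1, a mast cell chymase on the same list, went the other way, with 14 and 8 counts in bone marrow and 900 and 946 in blood. Neutrophil markers were at 2.22% to 3.17% in bone marrow and 1.18% to 2.11% in blood. On that list Mpo had 102423 and 117352 counts in control and knockout bone marrow, and 463 and 426 in the respective blood groups. Elane had 46361 and 57850 counts in bone marrow, and 57 and 48 in blood. Retnlg did not follow, with 420905 counts in control bone marrow and 406777 in the smaller control blood libraries. In knockout mice Retnlg had 362963 and 426354 counts. The summed eosinophil markers had a lower share in blood, as given above. That sum was not the direction of every gene on the list, since Prg2 had 4068451 counts in control bone marrow and 988631 in control blood, whereas Siglecf had 39676 and 51237 and Ccr3 had 88309 and 95615. T and NK cell markers had a higher summed share in blood, at 0.0267% to 0.0643% against 0.00957% to 0.0133%, although Nkg7 had more counts in bone marrow (7729 and 8473 in control and knockout mice) than in blood (5491 and 5469). Red cell markers were at 0.538% to 14.6% in blood and 0.138% to 0.249% in bone marrow of control mice, but overlapped in knockout mice, at 0.422% to 0.730% and 0.204% to 0.726%. The part of these cells in the lower Akr1c18 and Akr1c13 levels in blood was not tested.

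The share of Akr1c12 in the summed counts of Akr1c12 and Akr1c13 gives the balance of the 2 copies within a library, free of its total. It was 10.1%, 7.85% and 8.94% in the control marrow libraries and 6.37%, 8.85% and 8.59% in the knockout marrow libraries. In blood it was 10.4%, 10.6% and 13.3% in the control and 16.8%, 13.9% and 9.28% in the knockout libraries. The group means of 8.97 ± 1.14, 7.94 ± 1.37, 11.4 ± 1.62 and 13.3 ± 3.77% (SD, n = 3 each) were higher in blood in both genotypes, but single libraries came close. In control mice the lowest blood library was at 10.4% (95% Wilson interval 7.13% to 14.9%) and the highest marrow library at 10.1% (8.82% to 11.6%), and in knockout mice these were at 9.28% (7.25% to 11.8%) and 8.85% (6.99% to 11.2%). These intervals cover counting error only. No test of the share was run, since its marrow values entered the choice of the genes.

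**Figure D3:**
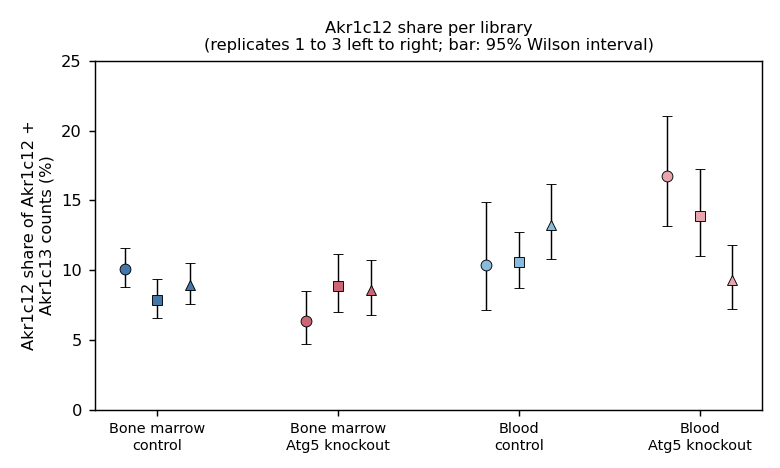
Akr1c12 as a percentage of the summed Akr1c12 and Akr1c13 counts in each library, by tissue and genotype, with 95% Wilson intervals that cover counting error only. Marrow libraries lie between 6.37% and 10.1%, and blood libraries between 9.28% and 16.8%.

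The genes whose pattern was most like that of each member were ranked by the root mean square difference of log2 CPM over the 12 libraries, each gene centered on its own mean, among 14712 genes. For Akr1c13 these were Larp4b (0.336), Id1 (0.351) and Ffar2 (0.356), the last a receptor for short-chain fatty acids, where a flat gene would be at the SD of Akr1c13 itself, 0.649. For Akr1c12 they were Plxdc2 (0.267), Tarm1 (0.294) and Enah (0.314), against its own 0.581. Akr1c12 ranked 11 for Akr1c13, and Akr1c13 ranked 9 for Akr1c12, both at 0.406. Akr1c18 followed another pattern, with Slc16a12 (0.675), C030015A19Rik (0.796) and Tas1r1 (0.819) nearest, against its own 1.73, and Akr1c13 at rank 1233. The nearest genes to Akr1c18 were all low in blood, Slc16a12 for example at 2.18 and 1.42 CPM in control and knockout bone marrow and at 0.369 and 0.0769 CPM in control and knockout blood. Tas1r1 was at 0.0457 and 0 CPM in control and knockout blood. Akr1c18 itself had 2 to 16 counts in each blood library, so its ranking rests in part on values near the floor.

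The other aldo-keto reductases showed no difference between genotypes that passed the test. Of 16 listed, 7 were tested in bone marrow and 6 in blood, and edgeR, DESeq2 and limma-voom called 0, with 0 at an unadjusted p under 0.05. Their median log2 fold change between knockout and control bone marrow was -0.0055, beside 0.0029 over all genes. Akr1a1, the aldehyde reductase and the most abundant of the family here, had group means of 340.4 to 386.7 CPM, and Akr1b1, aldose reductase, had 70.0 to 84.1 CPM. Neither was called in any of the 4 comparisons. Akr1e1, which lies next to the Akr1c cluster, was the 1 listed gene called between tissues, of 6 tested in each genotype, beside 34.2% and 47.6% of all genes called in control and knockout mice. It had 4.74 ± 1.28 CPM in control and 4.65 ± 0.816 CPM in knockout bone marrow, and 0.992 ± 0.0941 and 1.46 ± 0.533 CPM in the respective blood groups (SD, n = 3 each). Blood was lower by a log2 fold change of -2.26 in control mice (SE 0.36, edgeR adjusted p = 0.00202) and -1.65 in knockout mice (SE 0.35, edgeR adjusted p = 0.00482), and the value in control mice was -2.29 without blood control replicate 1.

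Genes of the prostaglandin pathway, the source of one class of AKR1C substrates, did not pass the test between genotypes. Of 28 listed, 21 were tested in each tissue and edgeR called 0 in both, with 4 at an unadjusted p under 0.05 in bone marrow and 2 in blood. DESeq2 called 1 in bone marrow and 0 in blood, and limma-voom called 0 in both. Between blood and bone marrow of control mice, 4 of 22 were called higher in blood and 8 lower, with a median of -0.17. In knockout mice 6 of 22 were higher and 8 lower, with a median of -0.30, beside medians over all genes of -0.0029 and -0.010. Over all genes, 34.2% and 47.6% were called in these comparisons, and the counts of the list are to be read against those shares.

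Ptgs2, the inducible cyclooxygenase, had 13.3, 4.70 and 0.442 CPM in the control blood libraries and 0.304, 0 and 0.430 CPM in control bone marrow, so the lowest blood library was level with the highest marrow library. Its log2 fold change was 4.57 (SE 1.21, edgeR adjusted p = 0.0189), 3.34 without blood control replicate 1 (edgeR adjusted p = 0.0223) and 5.18 without marrow control replicate 3. The call was lost without marrow control replicate 1, 2 or 3 (edgeR adjusted p = 0.0725, 0.0560 and 0.0526). In knockout mice Ptgs2 rose from 0.0787 to 15.02 CPM (7.50, SE 0.59, edgeR adjusted p = 2.16e-05). Hpgd, which inactivates prostaglandins by oxidation, rose by 3.20 in both genotypes (SE 0.56 and 0.25, edgeR adjusted p = 0.00305 and 2.4e-05). Ptger1, a prostaglandin E2 receptor, rose from 0.682 to 3.48 CPM in control mice (2.33, SE 0.37, edgeR adjusted p = 0.0019) and from 0.584 to 2.84 CPM in knockout mice (2.29, SE 0.40, edgeR adjusted p = 0.00159). Tbxa2r, the thromboxane receptor, fell by 2.71 in control mice, from 1.57 to 0.225 CPM (SE 0.88, edgeR adjusted p = 0.0411). That call was lost without blood control replicate 3 or marrow control replicate 1, 2 or 3 (edgeR adjusted p = 0.107, 0.134, 0.0570 and 0.134), and without blood control replicate 2 the log2 fold change was -4.23. Without blood control replicate 1 the log2 fold changes in control mice were 3.20 for Hpgd, 2.19 for Ptger1 and -2.19 for Tbxa2r, each still called.

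Of 37 other genes listed for steroid, retinoid and carbonyl metabolism, all enzymes except the steroid receptors Pgr and Nr3c1, 26 were tested in bone marrow and 24 in blood between genotypes. edgeR called 0 in either tissue, with 2 and 3 at an unadjusted p under 0.05, DESeq2 called 1 in bone marrow and 0 in blood, and limma-voom called 0. Between tissues 2 of 26 were higher and 5 lower in blood of control mice, with a median of -0.0099, and 4 were higher and 8 lower in knockout mice, with a median of -0.26. Beside the 34.2% and 47.6% called over all genes, these counts show nothing particular to the list. Srd5a1, the steroid 5-alpha-reductase, was lower in blood by a log2 fold change of -3.24 in control mice (SE 0.81, edgeR adjusted p = 0.0150) and -3.06 in knockout mice (SE 0.55, edgeR adjusted p = 0.00195). Dhrs13, a short-chain dehydrogenase, changed by -2.52 (SE 0.46, edgeR adjusted p = 0.0036) and -2.20 (SE 0.31, edgeR adjusted p = 0.000555), and the retinol dehydrogenase Rdh13 changed by -1.41 (SE 0.35, edgeR adjusted p = 0.0147) and -2.15 (SE 0.47, edgeR adjusted p = 0.00516). Without blood control replicate 1 the values in control mice were -2.73 for Srd5a1, -2.21 for Dhrs13 and -1.41 for Rdh13, each still called. The call of Srd5a1 in control mice was lost without marrow control replicate 2 (edgeR adjusted p = 0.0718), and that of Rdh13 without marrow control replicate 1 or 3 (edgeR adjusted p = 0.0692 and 0.0614). Leaving out blood control replicate 3 moved Srd5a1 to -3.96 and blood control replicate 2 moved Dhrs13 to -3.22, and leaving out blood knockout replicate 1 moved Srd5a1 in knockout mice to -3.76. As for Akr1c18, the mean blood levels of these 3 genes were under 2 CPM.

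**Figure D4:**
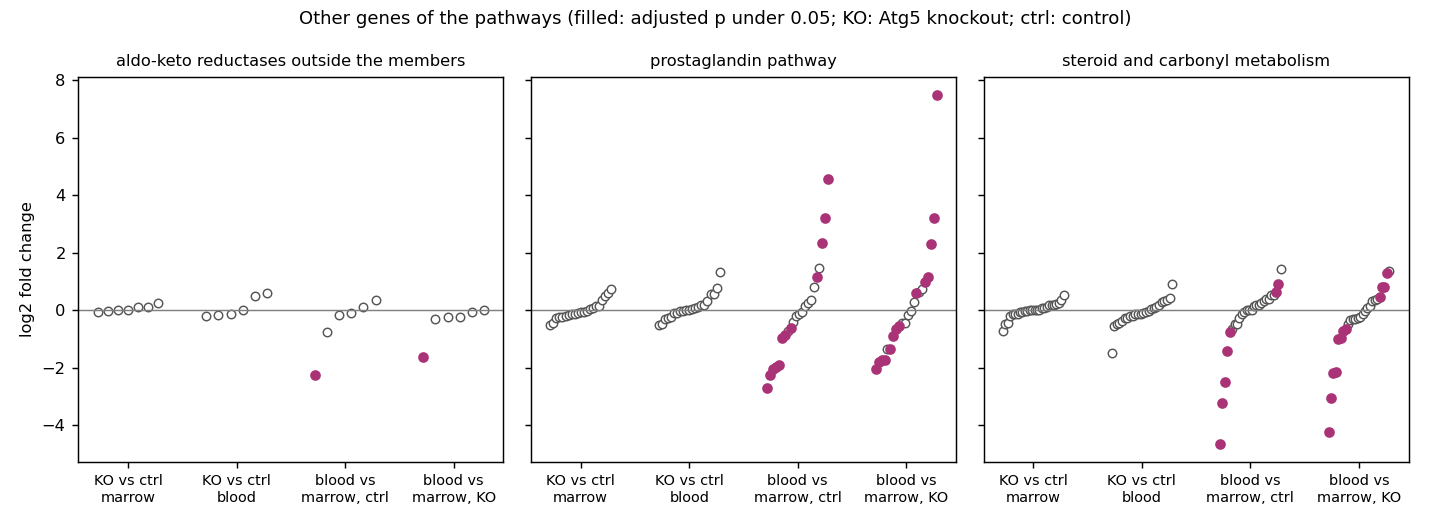
Log2 fold changes of the tested genes of 3 lists in the 4 comparisons (KO, Atg5 knockout; ctrl, control; filled points passed an adjusted p of 0.05 in edgeR), sorted within each comparison. No filled point appears between genotypes, and in the prostaglandin list Ptgs2 is the highest point between tissues, at 4.57 and 7.50.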

How the data were processed

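RNA of eosinophils isolated from bone marrow and blood was made into stranded mRNA libraries and sequenced as single-end reads of 100 bases, 3 libraries per tissue and genotype. The authors aligned the reads with HISAT2 2.2.1 and counted them with featureCounts, and they deposited the raw counts of each gene, with neither normalization nor filter. The table's header names featureCounts 2.0.1 with Ensembl release 92 on GRCm38, a paired-end option, and no option for strand or for reads that map to several places, whereas the methods name an annotation on GRCm39. Coordinates are those of the table. GENCODE M39 gave symbols, for 49674 of the identifiers, and transcript sequences. The columns of 0 other samples were present. The design text gives 3 mice per genotype without tying libraries to mice, so p-values measure the spread between these libraries.

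The members and gene lists were chosen with earlier results of these data known. Counts were tested with edgeR 4.0.16 in R 4.3.3 (quasi-likelihood test, TMM factors, filterByExpr with a minimum count of 10 and a minimum total of 15, prior count 0.125, Benjamini-Hochberg adjustment over all genes tested), on the 6 libraries of each comparison, with a two-sided call threshold of 0.05 on the adjusted p. The SE of a log2 fold change was its size divided by the square root of the F statistic. Log2 CPM for the ranking of like genes used a prior count of 2. The scripts were tested on simulated data. Alternatives were DESeq2 1.42.0, limma-voom (limma 3.58.1), other scalings, other filters, 1 fit of all 12 libraries, a replicate block, and leaving out each library. Same-numbered blood libraries of the 2 genotypes deviated together (correlations of 0.499, 0.208 and 0.298), so the numbers were taken to pair them there, from the data alone. The genes named were the members, Atg5, the other genes of the cluster, in each list those called between genotypes and, per tissue contrast, the 3 called genes of largest fold change with at least 1 CPM in a group, and the 3 genes most like each member. Genes of the marker lists were also named.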

Additional observations from a re-analysis of the deposited data

Results flagged for a closer look

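The fitted tissue changes of Akr1c12 had opposite signs in the 2 genotypes. Its log2 fold change from bone marrow to blood was -0.56 in control mice, where every blood library lay below every marrow library, and 0.53 in Atg5-knockout mice, where every blood library lay above every marrow library. Neither change passed the edgeR test, with adjusted p = 0.318 and 0.220. The difference between the genotypes was not tested, since that test contains the bone marrow contrast that chose the genes.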

How the results depend on the processing

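Of 111 refitted fold changes of the members in the 3 comparisons outside the bone marrow genotype contrast, 104 kept their direction and their side of the threshold. These include Akr1c13 and Akr1c18 between the tissues, which are descriptions, so nothing is read from this count for them. The 42 of the bone marrow genotype contrast, which had no test, kept their direction. Blood control replicate 2 turned the blood knockout effect of Akr1c13 from -0.29 to 0.0469 and that of Akr1c12 from -0.18 to 0.0451 when left out, and with other single libraries left out these went down to -0.68 and -0.51. Without blood knockout replicate 1, Akr1c13 between the tissues of knockout mice turned from -0.17 to 0.0774, and without replicate 3 it was -0.545. Leaving out single libraries gave values of Akr1c13 between the tissues of control mice from -1.29 to -0.65, which are a description, since the control marrow libraries entered its choice. In knockout mice Akr1c18 fell under a filter of at least 1 CPM in 3 libraries. With library size alone, Akr1c13 in control bone marrow was 52.0 CPM in place of 47.4 CPM. Where a library was left out of a group of 3, its fit pooled the spread over the remaining 5.

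Counts over all genes moved more. The 5 genes called between genotypes in blood became 22 with DESeq2, 77 with no filter, 16 in the fit of all 12 libraries and 10 with the replicate block, and ran from 2 to 6 with single libraries left out. The 48 in bone marrow became 193, 420, 12 and 23 in the same order, and ran from 18 to 219, the latter without marrow control replicate 1. Between the tissues of control mice the 4678 genes ran from 2627 to 5926. In that comparison the other aldo-keto reductases called were 2 with DESeq2 or library size alone and 3 with all 12 libraries in place of 1, and ran from 1 to 2 with libraries left out. The genes of the steroid and carbonyl list called there were 11 with DESeq2 and 12 with all 12 libraries in place of 7, and ran from 4 to 11. In knockout mice library size alone gave 4 aldo-keto reductases in place of 1. Between genotypes, where the lists had 0 called, the steroid list had 1 with no filter in blood, and 1 with DESeq2, 1 with no filter and 0 to 1 with libraries left out in bone marrow, and the prostaglandin list had 1 with DESeq2 and 1 with no filter in bone marrow. The causes were not tested.

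The replicate block moved the counts over all genes between genotypes, as given above, but changed no call of a member. With it, Akr1c13 between the tissues of control mice was -1.05 and Akr1c18 was -3.32, again as descriptions. Outside blood, same-numbered libraries shared only a number, with correlations of -0.147, -0.105 and 0.00414 between the genotypes in bone marrow, 0.123, 0.129 and -0.0415 between the tissues of control mice, and -0.105, -0.0566 and 0.0429 between those of knockout mice. In the blood libraries Akr1c18 rests on 2 to 16 counts each, which limits any comparison of its blood levels.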
